A study of Rattus norvegicus with 12 samples.

Results

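Slc2a1, Slc2a3, Hk1, Aldoc and Ldhb encode 2 facilitative glucose transporters and 3 enzymes of glycolysis and lactate metabolism, and they were followed in rats given lipopolysaccharide (LPS), a cell wall component of Gram-negative bacteria. The 5 genes were found by their symbols in the platform annotation, each on 1 probe, among 3939 named genes on 7200 probes. They had been selected on their measured ratios at 2 h and 6 h after LPS, so their values at these times, and the difference between the times, are given as descriptions without a test. The samples are total RNA of 3 rats labelled 2 h (rats 1, 2 and 3) and 3 labelled 6 h (rats 2, 4 and 6), and each was set against the control pool labelled with the same time. Blood as the source is named in the series title alone, and strain, age, sex, LPS dose and the treatment of the control animals are not stated in the labels used here.

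Each rat was hybridised on 2 two-colour arrays. On the array called fluor the control pool is in channel 1 and the LPS rat in channel 2, and on the array called flip the channels are exchanged. Every value is a log2 ratio of the channels, a relative measure and not a level. Both arrays of each rat carry the same RNA and were averaged, which leaves 3 rats per time. Each pool counts as 1 control sample, so the spread among control animals is not in any error given here, and a difference between 6 h and 2 h also holds that between the pools. The numbers do not say whether rat 2 at 2 h and rat 2 at 6 h are 1 animal, and they were treated as different samples. The number of arrays limits the precision, and no spot intensities were at hand.

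Positive ratios are read as higher in the LPS rats. This direction is likely rather than settled, because it is not stated whether the flip arrays were turned before deposit. Over the 6 rats, Pearson correlations of fluor with flip array lay between -0.23 and 0.25 over probes, while Il1b, Il1r2, Irf1, Zfp36 and Lcn2, genes known to be induced by LPS, were above 0 on all 12 arrays. Of the same kind of gene, Nfkbia was above 0 on 3 arrays, Sod2 on 10 and Tnf on 8. These 8 genes were chosen with earlier results of these data known. If the flip arrays had not been turned before deposit, the values would be those obtained by multiplying the flip arrays by -1, and these are given beside each gene.

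Glucose enters cells down its gradient through transporters of the Slc2a family, is phosphorylated by a hexokinase and cleaved after a further phosphorylation by an aldolase, and the pyruvate formed can be exchanged with lactate by lactate dehydrogenase. Leukocytes activated through Toll-like receptors are known to raise glucose uptake and lactate output, and mature red cells live by glycolysis alone. In a bulk RNA sample, fewer cells of a type and less RNA per cell cannot be told apart.

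Promoter sequence from RefSeq (build GRCr8) was held for Slc2a1, Hk1, Aldoc and Ldhb. The 250 bases before the annotated start are shown, for Hk1 those of the second start only. Each is written 5′ to 3′ on the strand of its gene, with ACGTG and GCGTG on either strand (CACGT and CACGC when read on the other) in capitals. These 5 letters are the core of the hypoxia response element bound by HIF factors. The windows are chr5:138002272-138002521 (plus strand) for Slc2a1, chr10:63715294-63715543 (plus) for Aldoc, chr20:30842073-30842322 (minus) for the second annotated start of Hk1 and chr4:177177409-177177658 (minus) for Ldhb.
Slc2a1: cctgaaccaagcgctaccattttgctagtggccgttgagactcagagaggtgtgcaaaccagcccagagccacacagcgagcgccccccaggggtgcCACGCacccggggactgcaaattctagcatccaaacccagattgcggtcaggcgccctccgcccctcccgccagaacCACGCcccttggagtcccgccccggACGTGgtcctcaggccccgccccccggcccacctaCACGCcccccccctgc
Aldoc: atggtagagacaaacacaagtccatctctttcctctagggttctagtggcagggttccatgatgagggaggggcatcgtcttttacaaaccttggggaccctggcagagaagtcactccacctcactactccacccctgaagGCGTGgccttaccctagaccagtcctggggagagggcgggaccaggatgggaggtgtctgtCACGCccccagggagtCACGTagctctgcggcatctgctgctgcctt
Hk1: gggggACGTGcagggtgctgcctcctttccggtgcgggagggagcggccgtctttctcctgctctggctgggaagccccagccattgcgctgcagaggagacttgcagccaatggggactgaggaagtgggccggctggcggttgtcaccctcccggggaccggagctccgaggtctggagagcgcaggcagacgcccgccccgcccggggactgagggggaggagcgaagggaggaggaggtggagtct
Ldhb: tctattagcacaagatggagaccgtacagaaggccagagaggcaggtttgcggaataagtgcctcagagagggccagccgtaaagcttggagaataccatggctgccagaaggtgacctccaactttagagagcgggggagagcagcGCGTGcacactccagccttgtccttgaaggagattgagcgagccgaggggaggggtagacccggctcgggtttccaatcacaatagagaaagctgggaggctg

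ACGTG was present once in the windows of Slc2a1 (51 bases before the start), Aldoc (31 bases) and the second start of Hk1 (245 bases), and in neither the first Hk1 window nor that of Ldhb. Of 33469 promoter windows of the same length, 16.6% held ACGTG, 25.9% held GCGTG and 36.7% held either. GCGTG was found 3 times in Slc2a1, 2 times in Aldoc and 1 time in Ldhb. The NF-kappaB motif, held by 6.33% of windows, was matched at 1 position of the second Hk1 window, on both strands, and in none of the other windows of these 4 genes. A match describes the letters and shows no binding.

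Slc2a1 encodes GLUT1, the widely expressed basal glucose transporter. At 2 h its log2 ratio was 0.051, 0.041 and 0.16 on the fluor arrays of rats 1, 2 and 3 and 0.26, 0.17 and 0.14 on their flip arrays. At 6 h it was 0.55, 0.28 and 0.20 on the fluor arrays of rats 2, 4 and 6 and 0.40, 0.50 and 0.56 on their flip arrays. All 12 values were above 0, and every rat mean at 6 h (0.38 to 0.48) lay above every rat mean at 2 h (0.11 to 0.15). The mean was 0.14 ± 0.026 (SD, n = 3; 1.10-fold) at 2 h and 0.42 ± 0.053 (SD, n = 3; 1.33-fold) at 6 h. The difference of 0.28 ± 0.044 (SE) between the times ran from 0.17 to 0.32 when arrays were centred, scaled or quantile normalized or probes numbered nearby were subtracted, and in each of these settings the rats of the 2 times did not overlap. The small ratio at 2 h was less secure: it fell to 0.031 when the mean of the 4 probes numbered nearest was subtracted, and was 0.29 with the median of the nearest 8. With the flip arrays multiplied by -1 the means were -0.052 and -0.072.

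Slc2a3 encodes GLUT3, a transporter with high affinity for glucose found in neurons and leukocytes. At 2 h the rat means were 1.15, 0.52 and 0.67 for rats 1, 2 and 3, and at 6 h they were 0.68, 0.40 and 0.30 for rats 2, 4 and 6. The single arrays ran from 0.40 to 1.26 with a median of 0.76 at 2 h, and from 0.13 to 0.89 with a median of 0.47 at 6 h. All 12 arrays were above 0. Rat 1 at 2 h stood above all others, and the rats of the 2 times overlapped. The mean was 0.78 ± 0.33 (SD, n = 3; 1.72-fold) at 2 h and 0.46 ± 0.20 (SD, n = 3; 1.38-fold) at 6 h, and the difference of -0.32 had an SE of 0.17. With the flip arrays multiplied by -1 the means were 0.078 and 0.21.

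Hk1 encodes hexokinase 1, which phosphorylates glucose and is the main hexokinase of brain and red cells. At 2 h it was 0.31, 0.40 and 0.43 on the fluor arrays of rats 1, 2 and 3 and 0.054, 0.31 and 0.068 on their flip arrays. At 6 h it was 0.15, 0.38 and 0.11 on the fluor arrays of rats 2, 4 and 6, and 0.041, -0.042 and -0.16 on their flip arrays. All 6 arrays at 2 h but 4 of 6 at 6 h were above 0. The mean was 0.26 ± 0.086 (SD, n = 3; 1.20-fold) at 2 h and 0.079 ± 0.097 (SD, n = 3; 1.06-fold) at 6 h. The highest rat at 6 h (0.17) lay just below the lowest at 2 h (0.18), and the difference of -0.18 had an SE of 0.067. On the fluor arrays alone, and with nearby probes subtracted, the rats of the 2 times overlapped. The means with the flip arrays multiplied by -1 were 0.12 and 0.13.

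Aldoc encodes aldolase C, the isoform known from brain, which splits fructose 1,6-bisphosphate. At 2 h it was 1.42, 1.28 and 1.39 on the fluor arrays of rats 1, 2 and 3 and 1.21, 1.28 and 0.94 on their flip arrays. At 6 h it was 1.81, 1.87 and 1.63 on the fluor arrays of rats 2, 4 and 6, and 1.52, 1.35 and 1.62 on their flip arrays. These were the highest ratios of the 5 genes on all arrays but the flip array of rat 1 at 2 h, where Slc2a3 was at 1.26. The mean was 1.25 ± 0.079 (SD, n = 3; 2.38-fold) at 2 h and 1.63 ± 0.031 (SD, n = 3; 3.10-fold) at 6 h, so that as deposited Aldoc lay above 99.8% of the 3939 named genes at either time. Multiplying the flip arrays by -1 put it above 91.6% at 2 h and 86.8% at 6 h.

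As deposited the rats of the 2 times did not overlap for Aldoc, and the difference was 0.38 ± 0.052 (SE). It depended on the scale of the arrays. It was 0.14 with arrays brought to a common median absolute deviation, 0.28 with quantile normalization and 0.093 with the mean of the nearest 4 probes subtracted, and in these 3 settings, as with the flip arrays multiplied by -1 (0.025), the rats overlapped. One of the 8 probes numbered nearest to Aldoc names Pde2a, whose mean was 0.88 at 2 h and 1.35 at 6 h. With the median of these 8 probes subtracted Aldoc was at 1.37 and 1.58. The means were 0.11 and 0.14 with the flip arrays multiplied by -1.

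Ldhb encodes the heart-type subunit of lactate dehydrogenase, whose tetramer is known to favour the conversion of lactate to pyruvate. On the fluor arrays it was -0.015, -0.45 and -0.18 in rats 1, 2 and 3 at 2 h and -0.063, -0.11 and -0.041 in rats 2, 4 and 6 at 6 h. On the flip arrays it was 0.061, 0.056 and 0.091 at 2 h and 0.14, 0.13 and 0.24 at 6 h. All 6 fluor arrays were thus below 0 and all 6 flip arrays above 0, at both times. The rat means averaged -0.073 ± 0.11 (SD, n = 3) at 2 h and 0.049 ± 0.046 (SD, n = 3) at 6 h, and the rats of the 2 times overlapped. The side of 0 on which Ldhb lay thus followed the orientation. Multiplying the flip arrays by -1 gave means of -0.14 and -0.12.

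**Figure D1:**
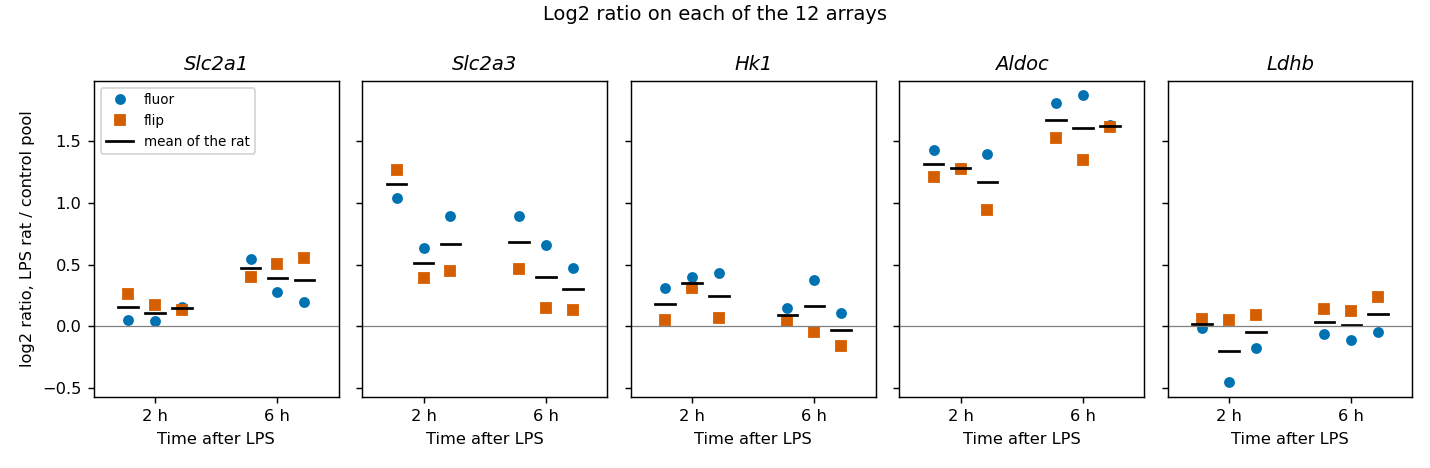
Log2 ratio of the LPS rat to its control pool (vertical axis) on each of the 12 arrays for the 5 genes, at 2 h and 6 h; circles are fluor arrays, squares flip arrays, and bars the mean of a rat, with rats 1, 2 and 3 from left to right at 2 h and rats 2, 4 and 6 at 6 h. Aldoc is above 0.9 on every array, Slc2a1 is higher at 6 h than at 2 h, and the fluor and flip arrays of Ldhb lie on opposite sides of 0.

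Ordered by mean ratio as deposited, the genes at 2 h ran Aldoc, Slc2a3, Hk1, Slc2a1 and Ldhb. Aldoc (lowest rat 1.16) and Slc2a3 (highest rat 1.15) were nearly touching, and the rats of Hk1 and Slc2a1 did not overlap either (0.18 to 0.35 against 0.11 to 0.15). At 6 h the order was Aldoc, Slc2a3, Slc2a1, Hk1 and Ldhb, with Slc2a3 (0.30 to 0.68) and Slc2a1 (0.38 to 0.48) overlapping, and Hk1 (-0.025 to 0.17) overlapping with Ldhb (0.0097 to 0.10). The 2 transporters thus stood apart at 2 h and together at 6 h. The order with the flip arrays multiplied by -1 was Hk1 (0.12), Aldoc (0.11), Slc2a3 (0.078), Slc2a1 (-0.052) and Ldhb (-0.14) at 2 h, and Slc2a3 (0.21), Aldoc (0.14), Hk1 (0.13), Slc2a1 (-0.072) and Ldhb (-0.12) at 6 h. These are orders of ratios and say nothing of how much of each transcript was present.

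The background among all named genes was as follows. Since the 5 genes were chosen on these values, nothing is read from their counts or from the calls on single genes. With limma's test and Benjamini-Hochberg adjustment over 3939 genes (threshold 0.05), 9.34% of genes were higher and 9.82% lower at 2 h, 8.30% higher and 10.7% lower at 6 h, and 0.508% differed between 6 h and 2 h. Of the 5 genes, 4 were past the threshold at 2 h (all but Ldhb), 3 at 6 h (Slc2a1, Slc2a3 and Aldoc) and 1 between the times (Aldoc). With the flip arrays multiplied by -1 the counts were 0 at 2 h, 3 at 6 h (Slc2a3, Hk1 and Ldhb, the last below 0) and 0 between the times. On that reading 7.18% of all named genes were up and 7.01% down at 2 h, and 20.7% up and 16.4% down at 6 h. At 2 h Slc2a1 missed the threshold without any 1 of the 2 h rats, on the fluor arrays alone, with the mean of the nearest 4 probes subtracted and with each time fitted alone. Hk1 missed it at 2 h without 2 h rat 2, which left 2 genes, and on the flip arrays alone. Slc2a3 missed it at 6 h without 2 h rat 3, without any 1 of the 6 h rats, on the flip arrays alone, and with scaled or quantile normalized arrays. The Aldoc call between the times ended without any 1 rat but 2 h rat 3, on either orientation alone, with scaled or quantile normalized arrays and with nearby probes subtracted. Ratios above 0 on all 12 arrays were found for 3.88% of named genes and for 3 of the 5, and rat means that did not overlap between the times for 21.7% and for 3 of the 5.

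The 2 orientations of a rat were also set against each other, as the difference fluor minus flip. It comes from the same arrays that chose the genes, and if the flip arrays had not been turned it would be 2 times the LPS ratio, so it is given as a description with no test. With limma 46.2% of all named genes and 4 of the 5 were past the threshold, and nothing is read from that count. Hk1 was higher on the fluor array in 6 of 6 rats, by 0.25 ± 0.053 (SE) on average. Ldhb was lower there in 6 of 6 rats, at -0.26 ± 0.056 (SE), and at -0.086 or -0.12 with nearby probes subtracted.

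Slc2a3 was higher on the fluor array in 5 of 6 rats, by 0.29 ± 0.081 (SE), and Slc2a1 in 2 of 6, with a mean of -0.12 ± 0.068 (SE). Aldoc was higher there in 6 of 6 rats, by 0.25 ± 0.078 (SE), but its size and sign depended on the processing. For Aldoc it was -0.15 with scaled arrays, 1.07 with quantile normalization and 0.42 or 0.48 with nearby probes subtracted. Slc2a3 was at 0.072 with scaled arrays, 0.54 with quantile normalization and 0.30 or 0.65 with nearby probes subtracted.

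**Figure D2:**
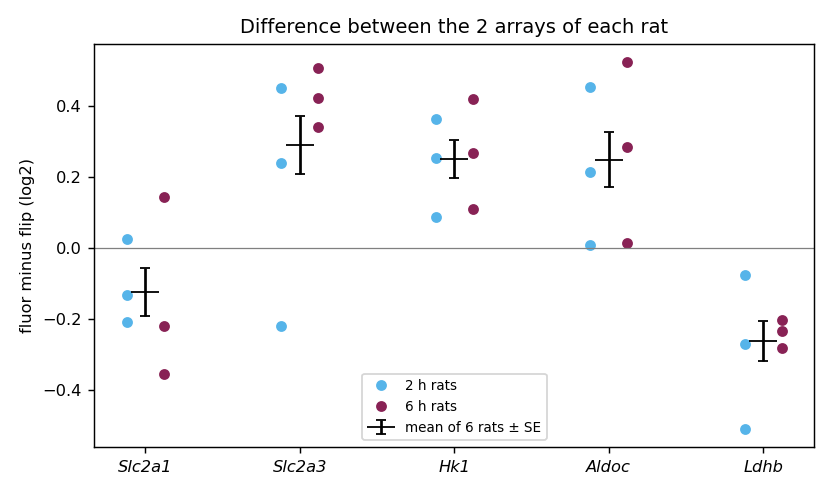
Difference in log2 ratio between the fluor and the flip array of each rat (vertical axis) for the 5 genes; points are the 3 rats of each time, and the bar with whiskers is the mean of the 6 rats ± SE. Hk1 and Aldoc lie above 0 in all 6 rats, Ldhb lies below 0 in all 6, and Slc2a1 lies on both sides.

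Other genes of glucose metabolism were taken from pathway lists made with earlier results of these data known. Of 66 measured genes outside the 5, 6 rose (9.09%) and 7 fell (10.6%) at 2 h, and 4 rose (6.06%) and 3 fell (4.55%) at 6 h. Read as deposited, these shares are set beside backgrounds of 9.34% and 9.82% at 2 h and of 8.30% and 10.7% at 6 h. With the flip arrays multiplied by -1 they were 3.03% up and 15.2% down at 2 h (all named genes 7.18% and 7.01%) and 18.2% up and 21.2% down at 6 h (all named genes 20.7% and 16.4%). The median ratio of the 66 was -0.0087 at 2 h and -0.0039 at 6 h, against -0.0070 and 0.0069 for all named genes. Between 6 h and 2 h limma passed 0 of the 66, with 9 at an unadjusted p under 0.05.

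Among these, 11 genes were transporters of the same family or glycolytic enzymes. At 2 h 2 of the 11 rose, none fell and 9 did not pass, and at 6 h limma passed 0 of 11 (3 at an unadjusted p under 0.05). Slc2a4, the insulin-responsive transporter GLUT4 of muscle and fat, rose at 2 h by 0.67 ± 0.31 (SD, n = 3; 1.59-fold; limma adjusted p = 0.0188) and stood at 0.30 ± 0.32 at 6 h (adjusted p = 0.160). At 2 h Slc2a4 was at 0.52 on the flip arrays alone (limma adjusted p = 0.0646) and at 0.15 with them multiplied by -1 (0.193). Adpgk, an ADP-dependent glucokinase, rose by 0.18 ± 0.043 at 2 h (limma adjusted p = 0.0105). Slc2a2, the GLUT2 of liver and pancreas, was at -0.086 ± 0.12 and -0.14 ± 0.020. The other measured isoforms of Aldoc and Ldhb did not pass. Aldoa, the aldolase of muscle and red cells, was at -0.11 ± 0.10 and 0.018 ± 0.080. Its means joined opposite orientations: the 6 fluor arrays ran from -0.61 to -0.16 and the 6 flip arrays from 0.13 to 0.33. Ldha, the muscle-type lactate dehydrogenase subunit, was at -0.034 ± 0.070 and 0.0042 ± 0.11.

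The phosphofructokinase, enolase and pyruvate kinase genes were also near 0. The phosphofructokinase genes Pfkl, Pfkm and Pfkp, whose enzyme commits sugar to glycolysis, ranged from -0.041 to 0.082 at 2 h and from -0.054 to 0.13 at 6 h, and none passed. Eno1 and Eno2, which encode enolases, were at -0.058 ± 0.032 and 0.090 ± 0.017 at 2 h, and Pklr, the pyruvate kinase of liver and red cells, at 0.011 ± 0.067. None of these 3 genes passed at either time.

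In neighbouring pathways Emb, which encodes an accessory protein of lactate transporters, rose at 2 h by 0.74 ± 0.19 (SD, n = 3; 1.67-fold; limma adjusted p = 0.0105) and was at 0.081 ± 0.37 at 6 h. Emb was at 0.15 at 2 h (limma adjusted p = 0.130) and Taldo1 at 0.19 (0.0190) with the flip arrays multiplied by -1. Taldo1, the transaldolase of the pentose phosphate pathway, rose by 0.31 ± 0.062 (limma adjusted p = 0.00354), though it was at 0.12 on the flip arrays alone (adjusted p = 0.231). Pgm2, a phosphoglucomutase, fell by 0.49 ± 0.10 on the log2 scale (0.714-fold; limma adjusted p = 0.00111). Txnip, known as an inhibitor of glucose uptake, fell by 0.39 ± 0.13 on the log2 scale (0.762-fold; limma adjusted p = 0.00397) and stood at -0.0042 ± 0.078 at 6 h. Neither Taldo1 (0.017), Pgm2 (-0.13) nor Txnip passed at 6 h.

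Tigar, a phosphatase that lowers fructose 2,6-bisphosphate, fell at 2 h (-0.14 ± 0.055; limma adjusted p = 0.0280) and rose at 6 h (0.13 ± 0.043; adjusted p = 0.0355), and the difference of 0.27 missed the threshold (adjusted p = 0.0594). Of 10 measured regulators of glycolysis and the hypoxia response, the other 8 passed at neither time, among them Vegfa (-0.078 and -0.10), Egln1 (-0.012 and 0.010) and Vhl (-0.072 and -0.016). Pdk2, a kinase that restrains pyruvate dehydrogenase, rose at 2 h (0.15 ± 0.083; limma adjusted p = 0.0486).

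The citric acid cycle list of 14 measured genes also holds genes of cytosolic enzymes, Mdh1 and Idh1 among them. Of this list at 2 h, Mdh1 (-0.23 ± 0.062), Idh3g (-0.15 ± 0.036) and Suclg1 (-0.13 ± 0.070) fell and Sdha rose (0.18 ± 0.071). At 6 h Idh3g (-0.21 ± 0.040) and Mdh2 (-0.18 ± 0.056) fell. Aldose reductase (Akr1b1) fell at both times (-0.15 ± 0.043 and -0.19 ± 0.037). Ketohexokinase (Khk, 0.24 ± 0.098), glucose 6-phosphatase (G6pc1, 0.21 ± 0.096) and glycogenin (Gyg1, 0.15 ± 0.071) rose at 6 h.

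The calls on these genes rested on few rats. The count at 2 h dropped from 13 to 4 without 2 h rat 2 and to 5 without 2 h rat 3, and the count at 6 h from 7 to 2 without 6 h rat 2 and to 4 without 6 h rat 4. Pgm2, Taldo1 and Txnip at 2 h and Akr1b1 and Idh3g at 6 h passed with any 1 rat left out. They were less secure otherwise: with the flip arrays multiplied by -1 only Mdh1 and Taldo1 of the genes called at 2 h passed, and 0 of those called at 6 h by limma. There Pgm2 was at -0.17 (limma adjusted p = 0.106), Txnip at -0.068 (0.320), Akr1b1 at -0.092 at 6 h (0.154) and Idh3g at 0.015 at 6 h (0.815). Idh3g also missed the threshold at 6 h with the median of the nearest 8 probes subtracted (-0.076, limma adjusted p = 0.160) and with the mean of the nearest 4 (-0.056, 0.488). With that mean subtracted, Mdh1 was at -0.0037 at 2 h (limma adjusted p = 0.959) and Akr1b1 at -0.085 at 6 h (0.140). With the median of the nearest 8 both passed. On the flip arrays alone Mdh1 missed the threshold at 2 h (limma adjusted p = 0.172) and Akr1b1 at 6 h (0.237). At 2 h the call ended without 2 h rat 2 or 2 h rat 3 for Slc2a4, Emb, Adpgk, Akr1b1, Pdk2, Sdha and Suclg1, without 2 h rat 2 for Tigar and Idh3g, and without 2 h rat 3 for Mdh1. It ended also without 2 h rat 1 for Idh3g, Tigar, Sdha and Suclg1, without 6 h rat 2 for Pdk2, Sdha, Suclg1 and Tigar, and without 6 h rat 4 or 6 for Pdk2 and Suclg1. At 6 h the call ended without 6 h rat 2 for G6pc1, Gyg1, Khk, Mdh2 and Tigar, without rat 4 for G6pc1, Mdh2 and Tigar, without rat 6 for Gyg1, Mdh2 and Tigar, and without 2 h rat 1 for Tigar. The highest limma adjusted p of a gene over these fits ran from 0.0504 (Mdh1) to 0.191 (Pdk2) at 2 h and from 0.0602 (Khk) to 0.161 (Tigar) at 6 h.

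**Figure D3:**
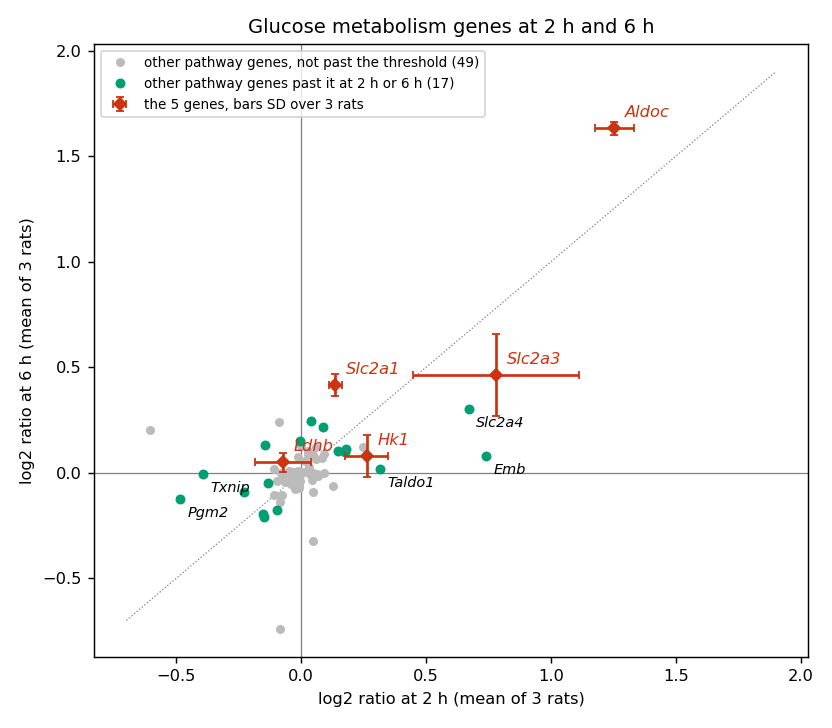
Mean log2 ratio at 2 h (horizontal axis) and 6 h (vertical axis) of the 5 genes (diamonds, bars SD over 3 rats) and of 66 other genes of glucose metabolism (circles, filled green where limma's adjusted p was under 0.05 at either time); the dotted line marks equal ratios. Values are as deposited. Aldoc at 1.25 and 1.63 lies apart from the other genes, most of which crowd around 0.

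Blood cell markers moved in the same samples, and their counts are those of the values as deposited. Of 13 measured erythroid genes 6 rose and 1 fell at 2 h, among them Slc4a1, the band 3 anion exchanger (0.81 ± 0.21), Car2, a carbonic anhydrase (0.58 ± 0.23), and Alas2, the erythroid enzyme of heme synthesis (0.46 ± 0.22). At 6 h 1 rose (Gata1, 0.35 ± 0.18) and 3 fell, with the globin genes Hbb-b1 at -0.33 ± 0.069 and Hbb at -0.16 ± 0.11. The median of the erythroid genes was 0.20 at 2 h and 0.17 at 6 h. The mean of the list was 0.20, 0.37 and 0.10 in rats 1, 2 and 3 at 2 h, and 0.15, 0.23 and 0.0049 in rats 2, 4 and 6 at 6 h. Rat 2 had the highest list mean and the highest Hk1 (0.35) at 2 h, but rat 1 was above rat 3 in the list and below it in Hk1 (0.18 and 0.25). At 6 h rats 4, 2 and 6 had the same order in both. Their part in the Hk1 values was not tested.

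Of 9 measured neutrophil genes 4 rose and 1 fell at 2 h, and 4 rose at 6 h. S100a9, a calcium-binding protein of neutrophils, was at 2.98 ± 0.53 and 2.70 ± 0.44. Lcn2 was at 0.69 ± 0.33 and 0.61 ± 0.0096, and Il1r2, a decoy receptor, at 0.62 ± 0.092 and 0.73 ± 0.24. Lcn2 and Il1r2 are also among the LPS-induced genes named above. S100a8 (-0.083 and -0.053) and Lyz2 (-0.070 and -0.010) passed at neither time, and Hdc fell at 2 h (-0.15 ± 0.094). Of the 9 genes, 6 had means above 0 at 2 h and 4 at 6 h. The median of the 9 was 0.12 at 2 h and -0.010 at 6 h, while the list mean, which S100a9 weighs on, ran from 0.47 to 0.62 over the 2 h rats and from 0.31 to 0.49 over the 6 h rats. Rat 1 at 2 h, which had the highest Slc2a3, also had the highest neutrophil list mean (0.62), but the other rats did not keep one order. At 2 h rat 2 was above rat 3 in the list (0.50 and 0.47) and below it in Slc2a3 (0.52 and 0.67), and at 6 h rat 6 was above rat 4 in the list (0.44 and 0.31) and below it in Slc2a3 (0.30 and 0.40). The part of the neutrophil markers in the transporter values was not tested.

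Of 7 T cell genes 2 fell at 2 h and 4 at 6 h, with Cd3d at -0.39 ± 0.11 and -0.69 ± 0.18. Of 4 B cell genes 2 fell at 2 h and, at 6 h, 1 fell and 1 rose, with Cd37 at -0.45 ± 0.080 and -0.71 ± 0.033. Of 3 monocyte and macrophage genes 1 fell at 2 h and 2 at 6 h (C1qb -0.20 ± 0.044 and -0.21 ± 0.029). Of 5 NK and cytotoxic genes 2 rose at each time (Gzmc 1.17 ± 0.13 and 1.87 ± 0.25), and of 2 platelet genes Gp9 rose at 2 h (0.18 ± 0.11). Of 16 liver and plasma protein genes Tf rose at 2 h (1.44 ± 0.41) and Serpina3n fell, and Orm1 and Serpina1 rose at 6 h. Ratios do not show whether the defining markers of a cell type were present, so the labelled tissue could not be checked by level. On the turned reading, the flip arrays multiplied by -1, the erythroid genes were 4 up and 2 down at 2 h and 6 up and 2 down at 6 h, and the neutrophil genes 1 up and 0 down at 2 h and 2 up and 3 down at 6 h.

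**Figure D4:**
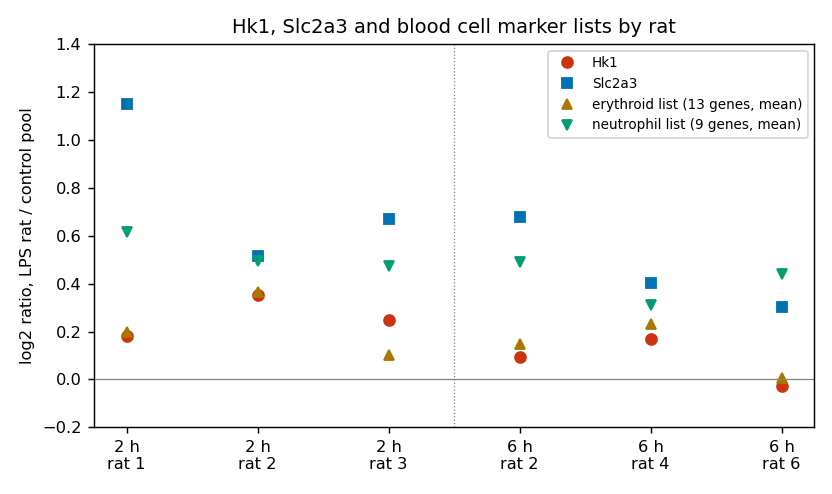
Log2 ratio to the control pool (vertical axis) of Hk1, Slc2a3 and the means of the erythroid (13 genes) and neutrophil (9 genes) marker lists in each of the 6 rats. Hk1 and the erythroid list are both highest in rat 2 at 2 h and lowest in rat 6 at 6 h, and Slc2a3 and the neutrophil list are highest in rat 1 at 2 h.

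The genes whose pattern over the 12 arrays was most like each of the 5 were named by Pearson's r on the values as deposited, leaving out genes with a probe numbered within 8. These are descriptions, since arrays of a rat share RNA, arrays of a time share a pool and both share orientation effects. For Aldoc they were Nr3c1, which encodes the glucocorticoid receptor (r = 0.957), the granule proteoglycan gene Srgn (0.938) and the peroxiredoxin gene Prdx5 (0.918). For Slc2a1 they were Lasp1 (0.940), Idi1 (0.909) and Id1 (0.896), each higher at 6 h than at 2 h in mean ratio. For Slc2a3 they were Arf6 (0.858), Ppp1r13b (0.818) and ST7 (0.813), of which Arf6 had means below 0 at both times (-0.087 and -0.15).

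For Hk1 the most similar were Ypel5 (0.970), Adipor1 (0.964) and Dis3l2 (0.962), with mean ratios of 0.39, 0.31 and 0.13 at 2 h and 0.14, 0.12 and 0.025 at 6 h. For Ldhb they were Ivd (0.963), Trim3 (0.960) and Ppp2cb (0.952), all with means between -0.10 and 0.11. Among the 5 genes themselves r ran from -0.80 (Hk1 and Ldhb) to 0.57 (Slc2a1 and Ldhb), and Slc2a1 and Slc2a3, the 2 transporters, had r = -0.38. Aldoc had r = 0.50 with Slc2a1 and was within 0.05 of 0 with the other three.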

How the data were processed

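Total RNA of 6 LPS-treated rats was measured on 12 two-colour arrays. The authors deposited log2 ratios of the channels, without intensities. The base was read from the values: raised to a power of 2, ratios under 5 came out as multiples of 0.0001 (within 0.05 of a step) in 100% of cases, and in at most 12.9% with base 10 or e. Array medians lay between -0.020 and 0.0083. No source used here gives the dyes, the scanner or how background and normalization were handled. Probes were named from the platform annotation, with symbols updated through gene identifiers of GRCr8 (4184 of 4190 probes with 1 symbol matched; 46 had several and 2964 none). Probes of a gene were averaged, then the 2 arrays of a rat. A repeated value stood on 242 to 298 probes per array and on no probe of the 5 genes.

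Rat means of all named genes were fitted with limma 3.58.1 (lmFit, eBayes, R 4.3.3), with both times in 1 fit and 4 residual degrees of freedom; p-values were adjusted by Benjamini-Hochberg over all 3939 genes. The rats are numbered separately in the labels, which say no more of how they were grouped, so p-values measure the spread between these samples, which may be technical. The script was tested on simulated data. The 5 genes, the gene lists and the tests were chosen with earlier results of these data known. Pathway genes past the threshold are named, at most 4 a list and comparison by size, and marker genes at most 3. Vegfa, Egln1, Vhl, the isoforms that did not pass, S100a8, Lyz2 and Hdc were named beyond that rule after their values were seen.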

Additional observations from a re-analysis of the deposited data

How the results depend on the processing

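Of the values of the 5 genes under other settings, 115 moved by less than 1 SD, 37 by more and 8 changed sign. The 115 include settings that could not move a value, so they overstate the stability. These were leaving out a rat of the other time, treating repeated values as missing, and taking 1 probe per gene. Leaving out 1 of the 3 rats of the same time could change a sign but could not move a mean by 1 SD. Those values are therefore no evidence of stability either. With the flip arrays multiplied by -1, which is the other reading of the direction, Slc2a1 was at -0.052 and -0.072 and Ldhb at -0.12 at 6 h. On the flip arrays alone Hk1 was at -0.054 at 6 h and Ldhb at 0.069 at 2 h, and on the fluor arrays alone Ldhb was at -0.070 at 6 h. With the median of 8 or the mean of 4 nearby probes subtracted Ldhb was at -0.063 or -0.066 at 6 h; the mean of 4 was chosen after seeing the data. Of the other pathway genes Pdk2 (-0.041 at 2 h), Gyg1 (-0.095), Khk (-0.087) and Idh3g (0.015, all at 6 h) changed sign with the flip arrays multiplied by -1. The count of other pathway genes at 2 h was 13, and 20 on the fluor arrays alone, 6 on the flip arrays alone, 8 with each time fitted alone and 4 to 12 with 1 rat left out. At 6 h it was 7, and 24 on the fluor arrays alone, 16 on the flip arrays alone, 26 with the flip arrays multiplied by -1, 12 with the mean of 4 nearby probes subtracted, 12 with every array fitted and rats as random blocks, and 2 to 10 with 1 rat left out. For 6 h minus 2 h it was 0, and 1 with scaled arrays, 4 with every array fitted and rats as random blocks, and 0 to 1 with 1 rat left out. The count of the 5 genes past the threshold for fluor minus flip was 4, and 2 with scaled arrays, 2 with the mean of 4 nearby probes subtracted, and 2 to 3 with 1 rat left out. The cause was not tested. Of the 5 genes, the number above 0 in all 6 rats was 3, and 2 with the flip arrays multiplied by -1, 4 on either orientation alone and with the median of 8 nearby probes subtracted, and 3 to 4 with 1 rat left out. The share of all named genes was not worked out for this count, so nothing is read from it. No paired analysis was possible because the 2 times share only 1 rat number. No intensities were at hand to show signal over background.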

Other observations

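Bsg encodes basigin, the membrane partner of the lactate transporters Slc16a1 and Slc16a3, and was singled out after its values were seen. Its means did not pass at either time (-0.089 ± 0.049 at 2 h and 0.24 ± 0.35 at 6 h, SD, n = 3), yet its 6 fluor arrays ran from -2.28 to -0.84 and its 6 flip arrays from 1.13 to 2.13. The difference fluor minus flip was -3.38, at rank 6 in size among 3939 named genes. It is given as a description, since Bsg was picked on this split. Tkt, the transketolase of the pentose phosphate pathway, had one of the lowest means among the pathway genes at 2 h (-0.61) but with an SD of 0.79 over the 3 rats (limma adjusted p = 0.126), and Idh1, the cytosolic isocitrate dehydrogenase, was at -0.74 ± 1.07 at 6 h (adjusted p = 0.154). The lowest array of Tkt was a fluor array at -2.95, while its 6 flip arrays ran from -0.22 to 0.53. For Idh1 the lowest was a flip array at -3.69, while its 6 fluor arrays ran from -0.32 to -0.046. What sets these extreme values was not tested.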
